A study of Arabidopsis thaliana with 18 samples.

Results

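The auxin-responsive SAUR, Aux/IAA and GH3 genes were followed in seedlings of Arabidopsis thaliana that carry or lack an intact CERES gene. Members were the genes whose description names, in the authors' deposited table, a SAUR-like auxin-responsive protein, an auxin-responsive GH3 protein, an Aux/IAA protein or an indole-3-acetic acid inducible gene. This rule took 84 of the 27628 genes in the table. Of these, 70 are SAUR genes, 8 are GH3 genes and 3 are Aux/IAA genes (IAA14, IAA18 and IAA29). The other 3 belong to further families and were taken because their descriptions mention Aux/IAA proteins: GRH1, the auxin receptor also called AFB1, the phosphatase IBR5 and the Rac-like GTPase ARAC1. The rule left out 45 genes whose symbol in the table places them in the same families, 9 SAUR, 26 Aux/IAA and 10 GH3 genes, among them GH3.2 to GH3.6. The Aux/IAA class is thus a small part of its family, and none of the 8 GH3 members carries a numbered GH3 symbol.

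Ribosome footprints and RNA were sequenced from the wild type Col-0 and from ceres-1 and ceres-2, both in the Col-0 background, with 3 libraries per genotype and kind of library and 18 in all. Seedlings were 9 days old, grew under control conditions with no treatment and were collected at Zeitgeber time 5, which is 5 h after lights on. CERES is a plant protein that interacts with the cap-binding factor eIF4E, and the labels do not describe the lesion of either allele. The comparison asks which auxin-responsive mRNAs differ in amount or in ribosome occupancy when CERES is disrupted. The targeted gene CERES (AT4G23840) had RNA log2 fold changes of -4.43 in ceres-1 and -2.92 in ceres-2 per the authors' deposited table. That table holds log2 fold changes over Col-0 and adjusted p-values, and no value per library. Values per sample, an SD and the depth of a library can therefore not be shown, and the 3 libraries per group enter only through the authors' adjusted p. Nothing in the labels says that replicates came from separate cultures, so these p-values can measure no more than the spread between libraries, which can be technical. A gene is called when its adjusted p is below 0.05. Whole seedlings were sampled, so that fewer cells of a type and less RNA per cell cannot be told apart.

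As background, auxin acts by bringing Aux/IAA proteins to TIR1/AFB receptors, F-box proteins that mark them for destruction. Aux/IAA proteins otherwise hold back the ARF transcription factors, and their loss lets ARFs switch on early genes, among which SAUR, Aux/IAA and GH3 genes are the classic families. SAUR proteins are small and short-lived, and those of the SAUR19 group inhibit type 2C phosphatases, which keeps plasma membrane proton pumps active and favours cell expansion. GH3 enzymes join auxin or other acids to amino acids, and new Aux/IAA and GH3 proteins close feedback loops that dampen the response.

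Most members could not be judged in footprints, because the table gives no adjusted p for them. In RNA of ceres-1 an adjusted p was given for 79 of the 84 members and in RNA of ceres-2 for 48. For footprints these numbers were 14 in ceres-1 and 22 in ceres-2, and for translational efficiency (footprints relative to RNA) 19 in each allele. Among SAUR genes 11.4% had a footprint adjusted p in ceres-1 and 22.9% in ceres-2, against 36.1% and 52.3% of all 27628 genes. DESeq2, the tool the submitters name, leaves the adjusted p empty for genes with low mean counts, as a rule of the software. An adjusted p in RNA of ceres-1 is no sign of a well measured gene, since every gene with a fold change has one there.

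**Figure D1:**
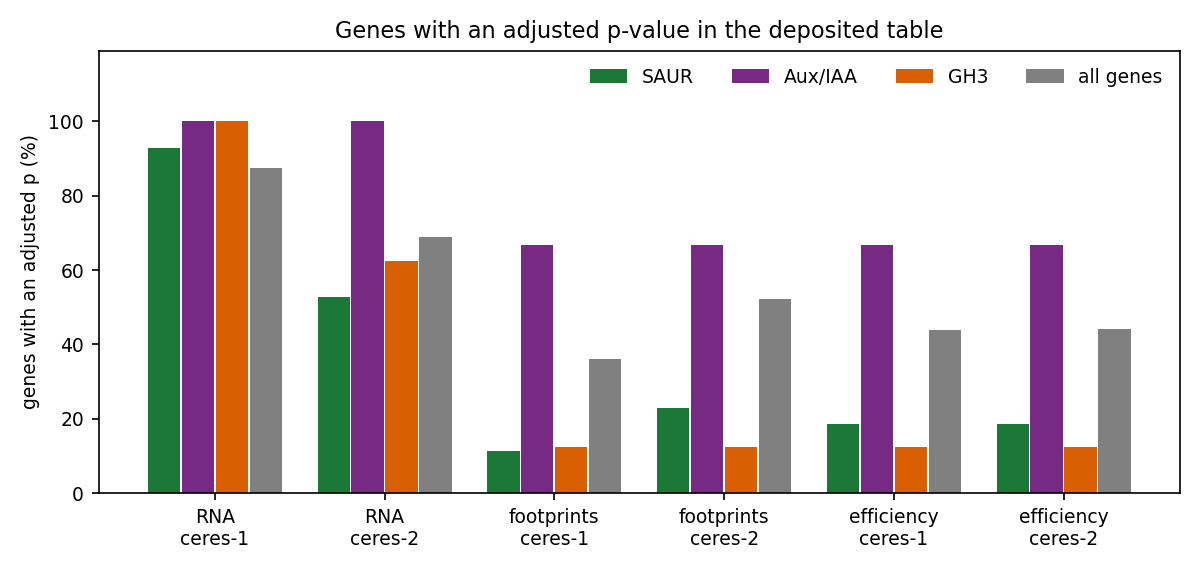
The share of genes (%) with an adjusted p per the authors' deposited table, for SAUR (70), Aux/IAA (3) and GH3 (8) members and for all 27628 genes, in RNA, footprints and translational efficiency of each mutant over Col-0. The SAUR bars drop from 92.9% in RNA of ceres-1 to 11.4% in footprints of ceres-1, below the bars for all genes.

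Across the 6 comparisons only 1 member was called, SAUR22 (AT5G18050), and only for its footprints, which rose in ceres-2. By the authors' deposited table its footprint log2 fold change there was 1.16, a 2.23-fold higher level (adjusted p = 0.0207). In ceres-1 the same table gives 0.95 for its footprints, with no adjusted p. Its RNA log2 fold changes per the authors' deposited table were 0.23 in ceres-1 and 0.59 in ceres-2, neither of them called. Across all genes tested in footprints of ceres-2, 0.733% were called higher, 1.15% lower and 1.88% in either direction. Of the 22 members tested there, 1 was called higher, 0 lower and 21 were not called. In footprints of ceres-1, where 0.642% of all tested genes were called (0.351% higher and 0.291% lower), 0 of 14 members were called, with a lowest adjusted p of 0.522 (SAUR20) per the authors' deposited table. The table gives no unadjusted p, and counts of 0 therefore stand without one at an unadjusted threshold.

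SAUR22 lies in a run of similar genes on chromosome 5, SAUR19 to SAUR24, of which SAUR20 to SAUR23 are members and SAUR19 (AT5G18010) and SAUR24 (AT5G18080) fall outside the rule. The RefSeq annotation of assembly TAIR10.1 places SAUR22 at chr5:5974341-5975087 on the minus strand and its neighbour SAUR23 at chr5:5975780-5976589 on the plus strand, so that the genes start back to back. Each of SAUR20 to SAUR23 has a single coding exon, and their proteins are 88 to 91 residues long. The first 60 coding bases of these members show how alike they are, with capitals at the 11 positions where the 4 genes are not all the same:
SAUR20 (chr5:5966521-5966580, minus strand): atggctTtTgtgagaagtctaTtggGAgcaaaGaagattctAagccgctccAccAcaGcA
SAUR21 (chr5:5968527-5968586, plus strand): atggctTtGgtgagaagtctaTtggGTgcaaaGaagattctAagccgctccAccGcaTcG
SAUR22 (chr5:5974904-5974963, minus strand): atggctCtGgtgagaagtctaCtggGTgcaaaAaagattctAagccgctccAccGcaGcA
SAUR23 (chr5:5976030-5976089, plus strand): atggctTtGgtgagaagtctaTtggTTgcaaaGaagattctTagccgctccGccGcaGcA
Coding sequences of SAUR22 and SAUR23 were 93.0% identical, and those of SAUR20 and SAUR22, the least alike pair, 87.3%. Reads as short as a footprint can match more than one of them. Of all 28-base windows of its coding sequence, SAUR22 shared 13.4% with another coding gene, SAUR23 35.8%, SAUR21 43.8% and SAUR20 27.7%, while SAUR19 and SAUR24 shared 64.6% and 46.3%. How reads with several matches were counted is not stated by the sources used here, so the single values of these genes are uncertain.

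Values of the run, which holds the called gene, lay above 0 with 1 exception, though not all had an adjusted p. SAUR23 had footprint log2 fold changes of 1.13 in ceres-1, with no adjusted p, and 0.89 in ceres-2 (adjusted p = 0.298) per the authors' deposited table. Its RNA values in that table were 0.55 and 0.89. SAUR20 was the only gene of the run tested in footprints of both alleles, at 0.43 and 0.29 per the authors' deposited table (adjusted p = 0.522 and 0.814). These values lie above 0, and none passed the threshold. SAUR21 had footprint values of 0.36 and 0.40 and RNA values of -0.015 and 0.31 per the authors' deposited table. SAUR19, outside the rule, had the highest RNA value of the run, 1.25 in ceres-2 (adjusted p = 0.318), with footprints at 0.81 and 0.90 per the authors' deposited table. SAUR24 lay between 0.26 and 0.52 in RNA and footprints of both alleles per the authors' deposited table. The RNA of SAUR21 in ceres-1 was therefore the 1 value of the 24 for the run that did not lie above 0. In footprints of ceres-1, SAUR19, SAUR21 and SAUR24 had no adjusted p either, so only SAUR20 was tested there. Values without an adjusted p are not read as changes. Over all genes with a fold change, 50.4% lay above 0 in footprints of ceres-1 and 49.7% in those of ceres-2. In RNA these shares were 49.3% and 49.1%. The alleles were each compared with the same Col-0 libraries, and the genes share sequence, so these values are not independent of each other.

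**Figure D2:**
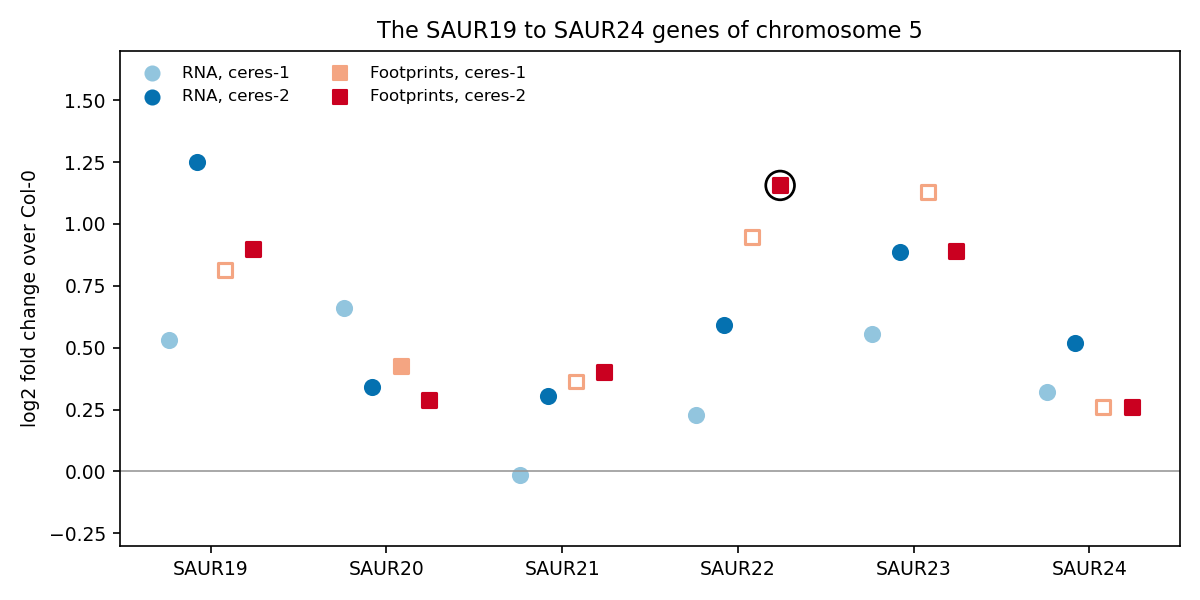
Log2 fold changes over Col-0 of SAUR19 to SAUR24 in RNA (circles) and footprints (squares) of ceres-1 (light) and ceres-2 (dark), from the authors' deposited table. Open symbols have no adjusted p, and the ringed symbol is the called value of SAUR22, 1.16 in footprints of ceres-2.

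The starts of these genes were read from the reference because they lie together and most of their values lie above 0. The 250 bases before the annotated start of SAUR22 (chr5:5975088-5975337, minus strand, RefSeq TAIR10.1) are shown with a match to TGTCTC, the classic auxin response element, in capitals, where it reads as its reverse complement from position -115 relative to the start:
SAUR22: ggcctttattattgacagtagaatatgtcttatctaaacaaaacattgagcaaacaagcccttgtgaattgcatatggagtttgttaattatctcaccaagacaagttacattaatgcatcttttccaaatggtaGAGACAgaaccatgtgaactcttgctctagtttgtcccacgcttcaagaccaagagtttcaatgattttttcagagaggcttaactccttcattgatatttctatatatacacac
A like stretch of 30 bases stands before the other 3 members, with the match in capitals where the letters are kept:
SAUR20 (chr5:5966793-5966822, minus strand): ttccaaatggtaGAGACAgaaccatgttct
SAUR21 (chr5:5968288-5968317, plus strand): ttctagattgtaaagacagaaccatgtgag
SAUR22 (chr5:5975185-5975214, minus strand): ttccaaatggtaGAGACAgaaccatgtgaa
SAUR23 (chr5:5975590-5975619, plus strand): ttccagatggtaaagacatattgataggca
SAUR20 and SAUR22 hold the element in this stretch and SAUR21 and SAUR23 do not. Over windows from 250 bases before to 50 after the start, searched on both strands, TGTCTC was found in 7 of 70 SAUR members (10%), against 14.2% of 27443 coding genes. Its variant TGTCGG was found in 2 of 70 SAUR members (2.86%, against 5.12%) and the G-box CACGTG in 1 of 70 (1.43%, against 7.68%). These motifs do not overlap in letters beyond the TGTC that the first 2 share, and a match is a description of the sequence only.

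No SAUR gene was called in RNA. In ceres-1, 41 of the 65 SAUR members with an adjusted p lay above 0 and 24 below, with a median log2 fold change of 0.15 from the authors' deposited table, against -0.0041 for all 24142 genes tested. In ceres-2, 28 of 37 lay above 0, with a median of 0.23, against -0.0048 for all 19000 genes tested and 49.1% of them above 0. The share of all tested genes called was 0.0249% in ceres-1 (0.0124% higher and 0.0124% lower) and 0.137% in ceres-2 (0.116% higher and 0.0211% lower). Every member tested had an RNA adjusted p above 0.9, as did 99.9% of all genes tested in ceres-1 and 99.5% in ceres-2. These medians are descriptions without a test. Members were not drawn at random and the alleles share their Col-0 libraries.

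Among SAUR members with an RNA adjusted p in both alleles, the highest means of both were those of SAUR28, SAUR61 and SAUR23. SAUR28 (AT3G03830) had RNA log2 fold changes of 0.81 and 1.69, and SAUR61 (AT1G29420) of 0.85 and 0.81, per the authors' deposited table. Their footprints had no adjusted p and stood at 0.72 and 0.76 for SAUR28 and 0.38 and 0.36 for SAUR61 in the same table. At the other end SAUR10 (AT2G18010) was at -0.62 and -0.13 in RNA of ceres-1 and ceres-2 per the authors' deposited table, while its footprints, with no adjusted p, stood at 0.38 and 0.88. SAUR51 (AT1G75580) had RNA values of -0.081 and -0.64 and SAUR55 (AT5G50760) of -0.075 and -0.24 per the authors' deposited table. SAUR36, a SAUR gene tied to leaf senescence, stood at 0.60 and 0.23 in RNA and at -0.050 and -0.28 in footprints per the authors' deposited table. SAUR9, which like SAUR19 inhibits PP2C.D phosphatases, stood at 0.29 and 0.65 in RNA and at 0.066 and 0.97 in footprints per the authors' deposited table. SAUR15, outside the rule, lay below 0 in all 4, from -0.72 to -0.11 per the authors' deposited table. None of these 3 had a footprint adjusted p, and SAUR9 had no RNA adjusted p in ceres-2 either.

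**Figure D3:**
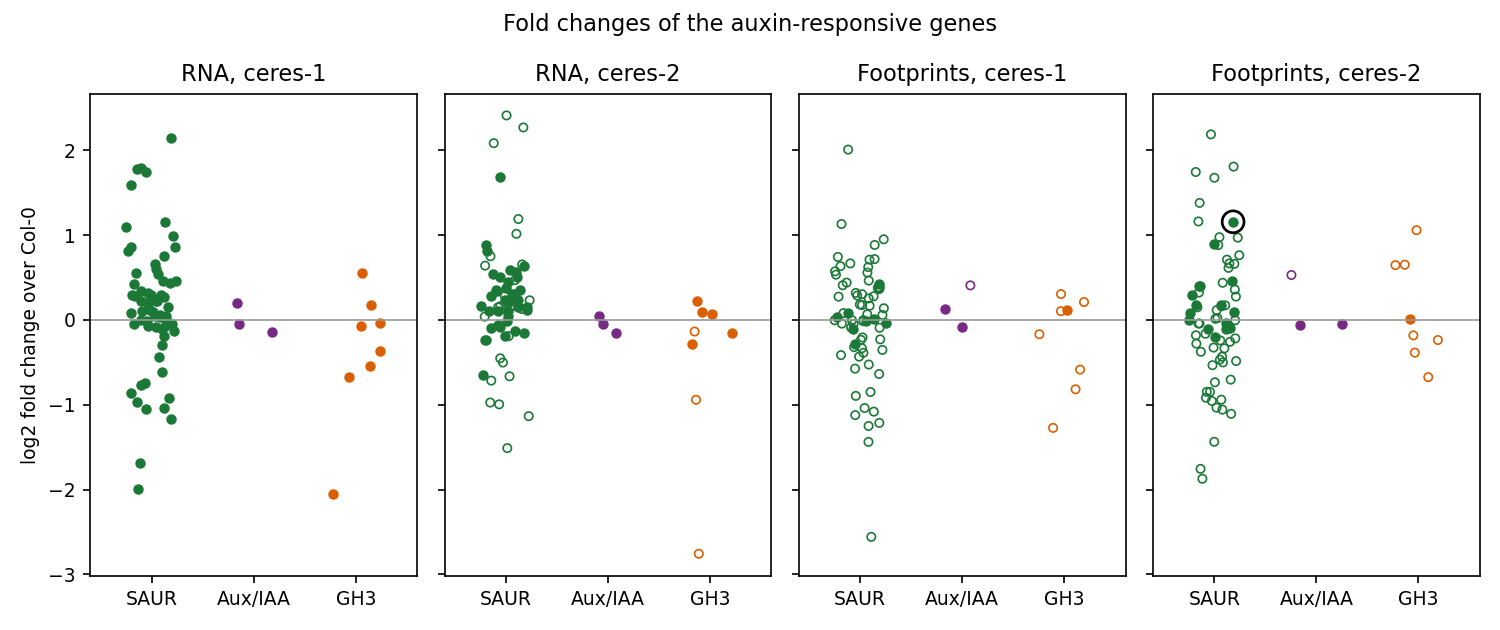
Log2 fold changes over Col-0 of the SAUR, Aux/IAA and GH3 members in RNA and footprints of each mutant, from the authors' deposited table. Filled points have an adjusted p, open points have none, points are spread sideways for legibility, and the ring marks SAUR22 in footprints of ceres-2, the called member.

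A second group of neighbouring SAUR genes lies on chromosome 1, SAUR61 to SAUR68, of which 6 are members and SAUR62 and SAUR67 fall outside the rule. All 8 had footprint log2 fold changes above 0 in ceres-2 per the authors' deposited table, between 0.092 and 0.66. SAUR61 and SAUR68, the latter with the highest of these values, had no adjusted p there, and none of the others was called. In ceres-1 5 of the 8 lay above 0, and the values ran from -0.093 to 0.38 per the authors' deposited table. Only SAUR63, SAUR66 and SAUR67 had a footprint adjusted p in ceres-1. SAUR63 (AT1G29440), known to promote growth of hypocotyls and stamen filaments, was at 0.31 and 0.35 in RNA and at -0.034 and 0.092 in footprints of ceres-1 and ceres-2 per the authors' deposited table. SAUR66 (AT1G29500) had the second highest footprint mean of the SAUR members tested in both alleles, with 0.034 and 0.40 per the authors' deposited table (adjusted p = 0.995 and 0.628). Coding sequence is shared here too, up to 47.1% of the 28-base windows for SAUR62 and 37.3% for SAUR63. Most other runs of neighbouring SAUR genes held footprint values on both sides of 0 in ceres-2, from -1.87 to 0.76 for SAUR26 to SAUR29 and SAUR73 on chromosome 3 and from -0.18 to 1.74 for the 7 genes SAUR1 to SAUR5, SAUR49 and SAUR50 on chromosome 4, from the authors' deposited table. The exception was the run of SAUR6, SAUR7 and SAUR12 on chromosome 2, SAUR6 being outside the rule. There all 3 lay below 0 in footprints of ceres-2 and above 0 in those of ceres-1 with no call, from the authors' deposited table. Of the other runs with values given here, only SAUR29, SAUR50 and SAUR6 had a footprint adjusted p in ceres-2. The remaining genes of those runs could not be called there, so their values are not read as changes.

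The median footprint value of the SAUR members with an adjusted p lay close to that of all genes in ceres-1 and above it in ceres-2, and over all 70 members it lay close to that of all genes in ceres-2 too. The 8 SAUR members tested in ceres-1 had a median footprint log2 fold change of -0.0037, with 4 above 0 and 4 below, against 0.0064 for all 9967 genes tested. The 16 tested in ceres-2 had a median of 0.13, with 11 above 0 and 5 below, against 5.49e-04 for all 14453 genes tested. Without SAUR20 to SAUR23, which are at least 90% identical to another gene in protein sequence, the ceres-2 median was 0.041 over 12 members. All 70 SAUR members with a fold change had a median of -8.58e-04, 35 above 0 and 35 below, against -0.0021 for all 23468 genes with a fold change.

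Among SAUR members tested in footprints of both alleles, SAUR14, SAUR16 and SAUR78 had the lowest means. SAUR14 (AT4G38840) was at -0.28 and -0.11, SAUR16 (AT4G38860) at -0.10 and -0.21, and SAUR78 (AT1G72430) at 0.0066 and -0.11 per the authors' deposited table, with adjusted p between 0.722 and 0.999. SAUR14 and SAUR16 belong to 1 run on chromosome 4, with SAUR15 between them. SAUR50 (AT4G34760), the third highest, was at -0.014 and 0.080 per the authors' deposited table. These values lay closer to 0 than those of SAUR22 and SAUR23 in ceres-2.

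SAUR members without a footprint adjusted p spread much wider. Their footprint log2 fold changes per the authors' deposited table ran from -2.56 to 2.01 in ceres-1 (62 members) and from -1.87 to 2.19 in ceres-2 (54 members). The middle 50% of these values spanned 1.09 in ceres-2, against 0.45 for the 16 members with an adjusted p, and all genes in the table differed in the same way, with spans of 0.98 and 0.28. SAUR44 (AT5G03310), chosen after its values were seen, had RNA values of 2.14 and 2.08 and footprint values of -2.56 and -1.11 per the authors' deposited table. Only its RNA value in ceres-1 had an adjusted p, and it was not called. SAUR42 (AT2G28085), chosen likewise, had footprint values of 2.01 and 2.19 there, with no adjusted p. Fold changes of this size without an adjusted p are not read as changes.

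In ceres-2, RNA and footprints of the tested SAUR members mostly had the same sign. Of the 16 with a footprint adjusted p, 14 had RNA and footprint log2 fold changes of the same sign and 11 had both above 0. Of 14447 genes tested the same way in ceres-2, 51.1% had the same sign and 24.9% had both above 0. In ceres-1 these counts were 5 and 3 of 8 SAUR members, against 48.1% and 25% of 9967 genes. The 16 members in ceres-2 are those with a footprint adjusted p, a minority of the class. Of the 54 SAUR members without one, 24 had footprint values above 0 there and 30 below. The sign counts thus do not describe the class as a whole. The members share sequence and the comparison was not tested.

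**Figure D4:**
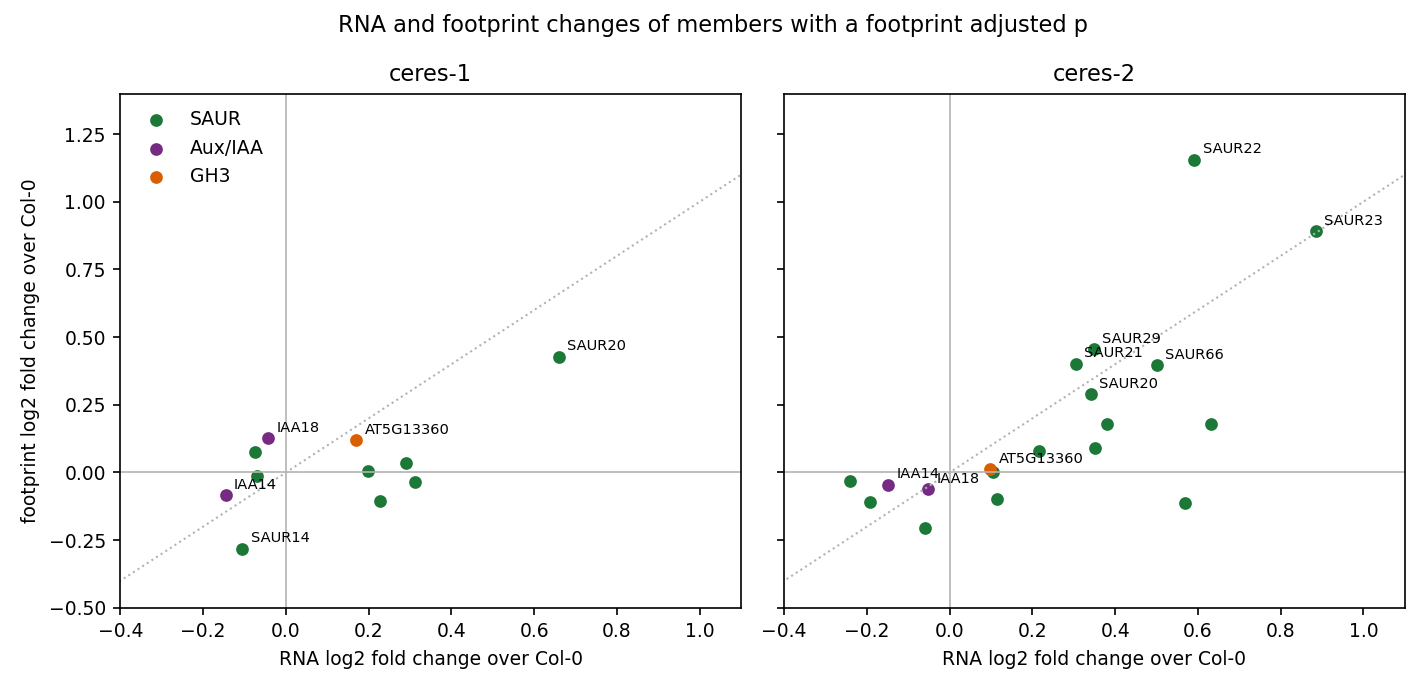
Footprint against RNA log2 fold changes over Col-0 for members with an adjusted p in both, in ceres-1 (left) and ceres-2 (right), from the authors' deposited table. The dotted line marks equal change, and in ceres-2 SAUR22 (0.59 in RNA, 1.16 in footprints) and SAUR23 (0.89 in each) stand farthest up.

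No member was called in translational efficiency, where 0.107% of all genes tested in ceres-1 (0.066% higher and 0.0413% lower) and 0.041% of those in ceres-2 (all lower) were called. The size of an efficiency difference is taken as footprint log2 fold change less RNA log2 fold change. The fold change column headed as efficiency was not used for it, since that column lies close to the footprint column (a median absolute gap of 0.0092 in ceres-2 across genes, against 0.12 to the footprint minus RNA difference). Per the authors' deposited table, the lowest efficiency adjusted p of a member was 0.731 for ceres-1 (SAUR16) and 0.862 for ceres-2 (SAUR78). SAUR78 had the lowest footprint minus RNA difference of the 16 SAUR members tested in ceres-2 footprints, -0.68 from the authors' deposited table, and SAUR22 the highest, 0.56. SAUR22 itself had no efficiency adjusted p. The median difference was -0.21 over 8 SAUR members in ceres-1 and -0.10 over 16 in ceres-2, against 0.0037 and -0.0023 for all genes under the same filter. Over all SAUR members with a fold change the median difference was -0.013 in ceres-1 (65 members) and -0.19 in ceres-2 (64 members, 42 below 0), so which allele was lower depends on the members taken. Since RNA is subtracted, RNA values above 0 lower this difference.

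The 3 Aux/IAA members were not called in any comparison. Each holds the degron core through which auxin and its receptor take hold of the protein, and the coding bases of that core are shown in capitals within 30 bases read from RefSeq TAIR10.1:
IAA14 (chr4:8349478-8349507, minus strand): caagtggtgGGTTGGCCACCGgtgaggaac
IAA18 (chr1:19306231-19306260, plus strand): ccagtggtgGGATGGCCTCCGgttcgatcc
IAA29 (chr4:15583942-15583971, plus strand): gaagttgttGGATGGCCACCAgtaaaaaca
Over the whole family, members and genes outside the rule together, 23 of 29 coding sequences encode this core. IAA14, which when stabilised blocks lateral root initiation, was at -0.15 in RNA of both alleles and at -0.084 and -0.045 in footprints per the authors' deposited table. IAA18, whose stabilised form alters embryo and root development, was at -0.043 and -0.052 in RNA and at 0.13 and -0.061 in footprints per the authors' deposited table. IAA29 is induced by shade and warmth through PIF factors and had RNA values of 0.20 and 0.048 and footprint values of 0.41 and 0.53 per the authors' deposited table. The footprints of IAA29 had no adjusted p. IAA14 and IAA18 thus stayed within 0.15 of 0 on the log2 scale in all 4 values. The footprint values of IAA29 exceeded its RNA values in both mutants. With no footprint or efficiency adjusted p, IAA29 could not be called there, and this gap is not read as a change.

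Of the 26 Aux/IAA genes outside the rule, 16 had an adjusted p in footprints of ceres-2 and 1 of these was called, IAA2 (AT3G23030), an early auxin-induced repressor. Over all genes tested there, 0.733% were called higher and 1.88% in either direction. Its footprint log2 fold change was 0.75 in ceres-2 (adjusted p = 5.91e-05) and 0.27 in ceres-1 (adjusted p = 0.633) per the authors' deposited table. Its RNA was at 0.74 in ceres-2 (adjusted p = 0.0607) and 0.53 in ceres-1 in the same table. IAA19 (AT3G15540), which is induced by auxin and acts in hypocotyl bending, was at -0.67 and -0.41 in RNA and at 0.44 and 0.24 in footprints per the authors' deposited table. Its RNA was not called, nor were its footprints in ceres-2 (adjusted p = 0.943). It had no footprint adjusted p in ceres-1 and no efficiency adjusted p in either allele. The well-known dominant-mutant genes IAA3, IAA7, IAA17 and IAA28 lay between -0.43 and 0.24 in footprints of both alleles per the authors' deposited table. The early auxin-induced IAA1 was at -0.41 and 0.20 in footprints, and IAA5 and IAA6, with no footprint adjusted p, were at -0.52 and -1.30 and at 0.020 and -1.45 per the authors' deposited table. Genes outside the rule were listed by symbol after the values were seen.

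GH3 members were not called either, and 7 of the 8 had no footprint adjusted p in either allele. AT5G13360, which lies in a run with GH3.12 and GH3.15 on chromosome 5, was the exception, at 0.17 and 0.098 in RNA and at 0.12 and 0.013 in footprints of ceres-1 and ceres-2 per the authors' deposited table (footprint adjusted p = 0.940 and 0.994). RNA of the 8 GH3 members had a median of -0.22 in ceres-1, 2 above 0 and 6 below. In ceres-2 the 5 with an adjusted p had a median of 0.067, 3 above 0 and 2 below, from the authors' deposited table. Over all 8 the ceres-2 median was -0.15, with 3 above 0 and 5 below, so its sign depends on the members taken. The ceres-1 median depends on the genes taken too, at 0.0071 over 18 genes when the GH3 genes outside the rule were added. AT1G48660 (0.55 and -0.16), AT1G48670 (-0.066 and 0.23) and AT1G48690 (-0.033 and -0.29) form a run on chromosome 1, and their RNA values per the authors' deposited table, given here for ceres-1 and ceres-2, did not keep 1 direction. AT5G51470 had the lowest mean RNA value of the class among those tested in both alleles, with -0.67 and 0.067 per the authors' deposited table. The remaining AT1G23160, AT5G13350 and AT5G13380 had RNA values from -2.76 to -0.14 per the authors' deposited table and no RNA adjusted p in ceres-2.

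The GH3 genes with a numbered symbol lie outside the rule, among them enzymes that act on auxin. GH3.6 (AT5G54510), an auxin-amido synthetase, had footprint log2 fold changes of 0.46 in ceres-1 (adjusted p = 0.0865) and 0.26 in ceres-2 (adjusted p = 0.360) per the authors' deposited table. GH3.5 was at 0.22 and 0.26, GH3.2 at 0.30 and 0.17, GH3.3 at -0.10 and -0.0080, and GH3.17 at 0.082 and 0.16 in footprints per the authors' deposited table. None of these was called, in RNA or in footprints. GH3.12, which acts in salicylic acid synthesis and not on auxin, was at 0.29 and -0.64 in RNA per the authors' deposited table, without a footprint adjusted p.

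The 3 members of other families were tested in all 6 comparisons and not called. GRH1 (AFB1), a receptor of fast auxin responses in roots, was at 0.13 and 0.22 in footprints and at 0.11 and 0.26 in RNA per the authors' deposited table. IBR5, needed for a full response to auxin, was at 0.34 and -0.083 in footprints and at 0.27 and 0.35 in RNA per the authors' deposited table. ARAC1, a small GTPase of the auxin-triggered proteolysis pathway, stayed between -0.039 and 0.094 in RNA and footprints of both alleles per the authors' deposited table. All 3 genes lay above 0 in RNA of ceres-2 and in footprints of ceres-1. ARAC1 lay below 0 in RNA of ceres-1 and IBR5 below 0 in footprints of ceres-2.

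In the wider pathway the calls fell on auxin synthesis and on 1 transporter. Of 58 listed genes, 3 were called higher in RNA of ceres-2 (54 tested), 1 higher and 1 lower in footprints of ceres-2 (49 tested), and 0 in ceres-1 or in efficiency. Over all genes tested in ceres-2, 0.116% were called higher in RNA, and in footprints 0.733% were called higher and 1.15% lower. Of 11 synthesis genes, the flavin monooxygenase genes YUC5, YUC8 and YUC9 rose in RNA of ceres-2, by 2.90, 1.78 and 2.05 on the log2 scale per the authors' deposited table (adjusted p = 0.00774, 3.01e-04 and 0.00197). YUC8 also rose in footprints of ceres-2, by 1.58 per the authors' deposited table (adjusted p = 4.63e-05). Footprints of YUC5 and YUC9 stood at 1.90 and 0.98 there with no adjusted p, and none of the 3 had a footprint adjusted p in ceres-1. In ceres-1 RNA the same genes were at 1.91, 1.07 and 0.13 per the authors' deposited table and were not called. Among 15 transport genes, the auxin exporter ABCB1 fell by 0.39 in footprints of ceres-2 per the authors' deposited table (adjusted p = 0.0472), and its RNA was at 0.037. None of 6 receptors, 15 ARF factors, 5 corepressors of the TPL family and 6 SAUR targets was called. The proton pump AHA1, a target of SAUR action, had the lowest adjusted p among the last, with footprints at -0.24 in ceres-2 per the authors' deposited table (adjusted p = 0.170), and AHA2 was at -0.017.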

How the data were processed

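RNA and ribosome footprints were measured in 3 libraries per genotype and kind of library. The submitters' processing notes name TopHat2 2.1.0, an aligner, featureCounts 1.6.2, a read counter, and DESeq2, which tests counts. Not given in the sources used here are build, annotation, strandedness, the treatment of reads with more than one match, and whether fold changes were shrunk. The deposited values, per the file headers, are log2 fold changes over Col-0 and adjusted p-values, 12 columns in all, with no depth or value per library. No fit across libraries and no paired check could be made from comparisons alone. An ARF class foreseen by description had no member. Members, lists and rules were chosen with earlier results of these data known.

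Members were matched by description with pandas 2.3.3 in Python 3.11.15, and called at an adjusted p below 0.05 over all genes. Class medians use members with an adjusted p in that comparison (in both footprints and RNA for their difference) and need at least 5. Named were the called members, the 3 highest and lowest per class in RNA and in footprints by the mean of both alleles, and textbook genes. Of the pathway list, called genes were named, and AHA1 and AHA2 as pumps that SAUR action targets. The pathway list holds 58 genes by locus. All 84 members matched a RefSeq gene of assembly TAIR10.1, from which coding sequences (the longest per gene), 28-base windows, promoters and protein identity (Biopython 1.88, global alignment) were taken. Windows of 28 bases were chosen as about the length of a footprint. AT5G01830 was left out of the SAUR family although its symbol reads SAUR21. The counting and median functions were tested on simulated data.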

Additional observations from a re-analysis of the deposited data

How the results depend on the processing

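No paired analysis was possible because only fold changes and adjusted p-values are at hand. For the same reason leaving out each replicate in turn was not run. The 26 counts and medians were recomputed under the alternatives that apply to each, which differ between counts and medians, and 9 of the alternative values moved, a median by more than 0.1 or a count by more than 1.5 times. At an adjusted p below 0.01, 0 SAUR members were called in footprints of ceres-2. With genes of the same family by symbol, an alternative chosen after seeing the data, 1 Aux/IAA gene was called there (IAA2), and the GH3 RNA median in ceres-1 was 0.0071 over 18 genes. The mean in place of that median was -0.38. Over all members with a fold change, the GH3 RNA median in ceres-2 was -0.15 and the SAUR footprint median in ceres-2 was -8.58e-04. The SAUR footprint minus RNA median in ceres-1 was -0.013 over all members and 0.0036 with the deposited efficiency column, and in ceres-2 0.099 with that column, which follows the footprints. The cause of the other shifts was not tested. SAUR RNA medians lay between 0.12 and 0.20 in ceres-1 and between 0.16 and 0.31 in ceres-2 under the alternatives run for them. Most SAUR members had no footprint adjusted p, so the footprint medians describe a minority of the class, and the depth of the libraries is unknown.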
